A study of Mus musculus with 14 samples.

Results

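The genes described here lie around Gsdmd on mouse chromosome 15. They are Mroh6, Naprt, Eef1d, Zc3h3, Top1mt, Rhpn1, Mapk15, Scrib, Puf60 and Nrbp2, taken by symbol from the deposited table, and they make up 10 of its 36118 genes. The table holds hippocampal RNA-seq from 14 mouse pups killed on postnatal day 15, with 1 library per mouse. GSDMD-KO pups carry a small CRISPR deletion within an exon of Gsdmd in every cell, and their WT littermates come from the same heterozygote matings. Pups breathed room air or 85% oxygen (hyperoxia) from postnatal day 1 to day 14. This gave 4 WT mice in room air (WT-RA), 4 WT mice in hyperoxia (WT-O2), 3 knockout mice in room air (KO-RA) and 3 knockout mice in hyperoxia (KO-O2). The KO line was on C57BL/6N, the labels give C57/BL6 for all groups, and sex is not given in the labels. The question put to these genes is whether the neighbourhood of the edited gene is expressed at another level in KO than in WT mice, in either exposure.

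Gsdmd encodes gasdermin D, the protein that is cleaved by inflammatory caspases and then forms the membrane pores of pyroptosis. A gene that is edited in the germline is inherited together with the DNA beside it. Genes on that DNA can differ between a knockout and its controls because of the edit, because of linked sequence variants, or not at all, and for that reason flanking genes are commonly looked at in knockout lines. The neighbours of Gsdmd have no shared pathway. Naprt makes NAD from nicotinic acid and Top1mt relaxes mitochondrial DNA. Scrib, Mapk15, Rhpn1 and Nrbp2 encode a polarity scaffold, an atypical MAP kinase, a signalling adaptor and a pseudokinase. Eef1d, Puf60 and Zc3h3 act in translation elongation, splicing and the export of messenger RNA.

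Libraries held 27272270 to 28257496 counts, and 16637 genes passed the filter on low counts, 9 of the 10 flanking genes among them. Values are CPM, the counts scaled to a common library total, which are not divided by gene length, so that levels are compared between mice and not between genes. A gene was called when its log2 fold change reached 0.32 in either direction, its p lay under 0.05 and its q, the Benjamini-Hochberg adjusted p of edgeR's quasi-likelihood test over all 16637 genes, lay under 0.1. The animal numbers of the WT mice are all below those of the KO mice, so that anything that goes with those numbers and the genotype cannot be told apart. WT-O2 replicate 4 has hyperoxia in its title and room air in its treatment field and was used as hyperoxia. Marker genes also separated the genotypes. All 8 striatal markers were called lower in KO mice in both exposures, as were 6 of 8 thalamic markers and 4 of 4 oligodendrocyte markers, while 7 of 8 hippocampal markers in room air and 5 of 8 in hyperoxia were called higher. Choroid plexus markers set 2 libraries apart. Their sum was 36.8 CPM in KO-RA replicate 1 and 106 CPM in KO-O2 replicate 2, against 922 to 3397 CPM in the other libraries. In bulk tissue, fewer cells of a type and less RNA per cell cannot be told apart.

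Gsdmd itself was low in all mice. It had 44, 48, 51 and 41 counts in the WT-RA mice, 60, 51, 63 and 60 in WT-O2, 22, 42 and 36 in KO-RA, and 38, 36 and 40 in KO-O2. The mean level was 1.64 ± 0.14 CPM (SD, n = 4) in WT-RA, 2.09 ± 0.18 CPM (n = 4) in WT-O2, 1.19 ± 0.34 CPM (n = 3) in KO-RA and 1.39 ± 0.094 CPM (n = 3) in KO-O2. In CPM every KO mouse lay below every WT mouse of the same exposure, in room air by as little as 1.469 against 1.471 CPM, and in counts KO-RA replicate 2 lay above WT-RA replicate 4. No KO library was at 0. The deletion removes only a small piece of the transcript and the counts cover all of it, so this level does not test the genotype. The study itself reported no measurable Gsdmd transcript in KO brains by qRT-PCR, with data not shown, and no detectable protein by immunostaining. Which part of the transcript that qRT-PCR covered is not stated, and its difference from these counts was not tested. The log2 fold change, KO over WT, was −0.46 (SE 0.20, q = 0.168 by edgeR) in room air and −0.58 (SE 0.19, q = 0.0962) in hyperoxia. Averaged over both it was −0.52 (SE 0.14, q = 0.016), a call that held in all 14 fits that left out 1 mouse (q from 0.00986 to 0.0379) and was lost with marker scores as covariates (−0.41, q = 0.828). In room air the value was −0.25 (q = 0.515) without KO-RA replicate 1 and −0.64 (q = 0.1) without KO-RA replicate 2. The call in hyperoxia was lost in DESeq2 (q = 0.131), in 12 of 14 edgeR fits that left out 1 mouse (q from 0.051 to 0.239 over the 14) and in 5 of 8 other alternatives, DESeq2 among them.

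Of the 9 flanking genes tested, 2 were called between KO-RA and WT-RA, or 22.2%, against 10.4% of all genes tested. Naprt was higher and Scrib was lower. Without KO-RA replicate 1, 2 flanking genes were called (Naprt and Rhpn1), against 6.37% of all genes. Between KO-O2 and WT-O2, 0 of 9 were called by edgeR against 6.86% of all genes, and DESeq2 called 1 against 7.79%. At an unadjusted p under 0.05 there was 1 of the 9, against 18.7%. That gene was Naprt in both cases. Without KO-O2 replicate 3, edgeR called 0 of the flanking genes, against 4% of all genes. Averaged over the exposures, 2 of 9 were called against 12% of all genes, Naprt higher and Mapk15 lower. In room air 3 of the 9 had an unadjusted p under 0.05, against 23.5% of all genes, and in the average 4 had, against 30.1%. The median log2 fold change of the 9 genes was −0.02 in room air, −0.02 in hyperoxia and −0.02 averaged, and that of all genes was −0.01 in each. In room air 4 of the 9 were above 0 and 5 below it. In hyperoxia 3 were above 0 and 6 below. The groups did not overlap for 2 of 9 genes in room air (Naprt, Scrib), against 19.6% of all genes, and for 2 of 9 in hyperoxia (Naprt, Mapk15), against 19%. With both exposures pooled they overlapped for all 9, against 5.9% of all genes without overlap.

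**Figure D1:**
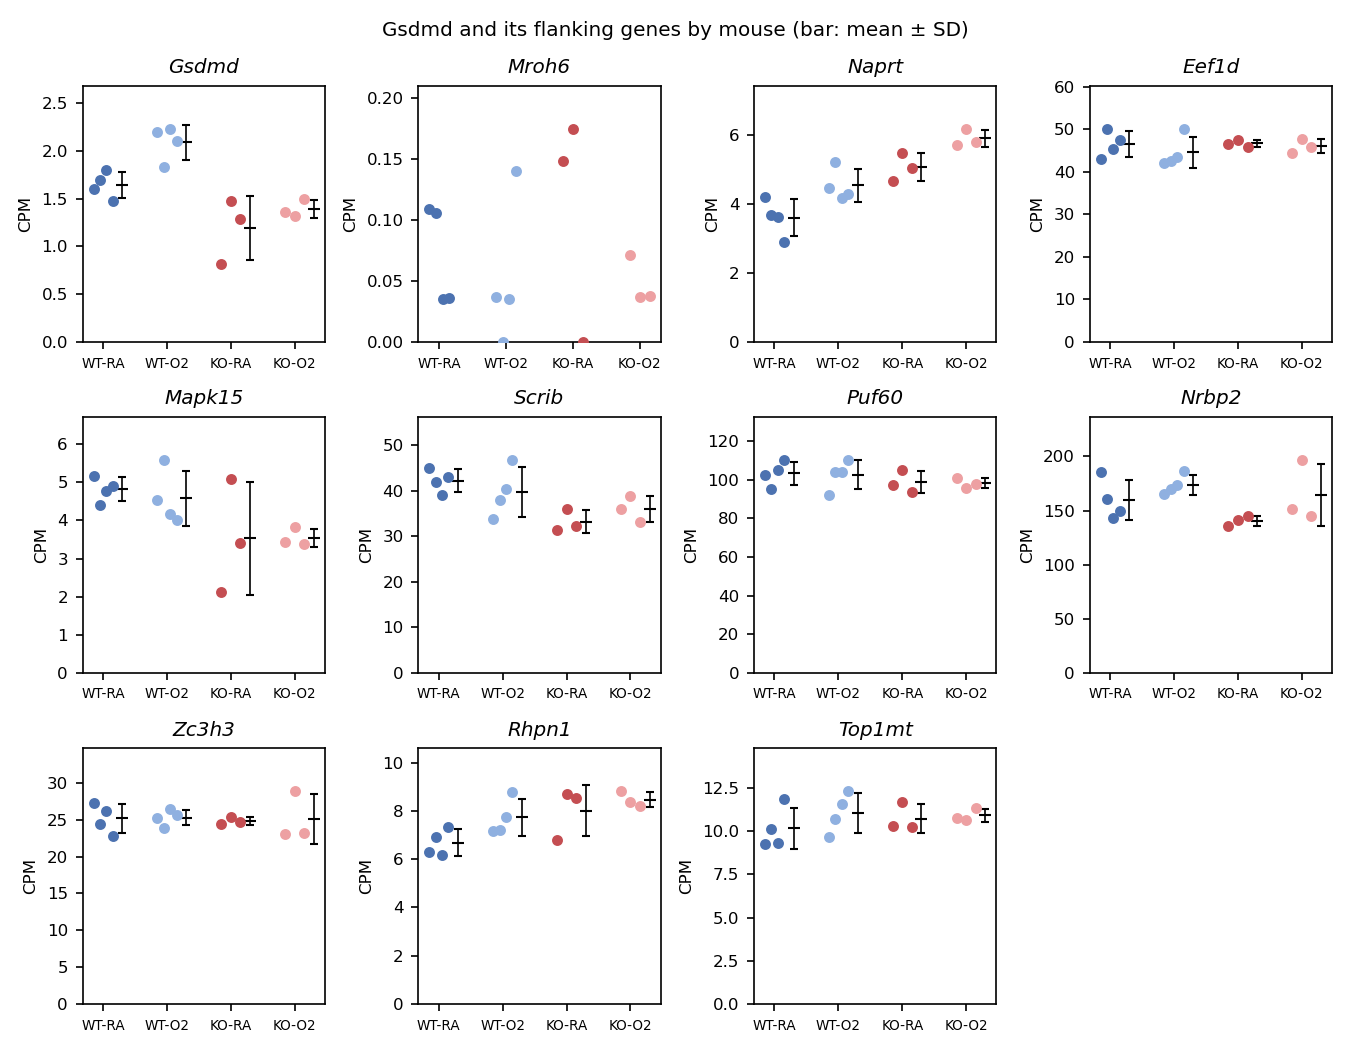
Gsdmd and its 10 flanking genes in CPM, with 1 point per mouse and, beside each group except for Mroh6, the mean with its SD. The 3 KO-RA mice sit above all 4 WT-RA mice for Naprt and below all 4 for Scrib, while the groups overlap for Eef1d, Zc3h3, Puf60 and Top1mt.

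Naprt encodes nicotinate phosphoribosyltransferase, the first enzyme of the route from nicotinic acid to NAD. It was measured at 4.22, 3.70, 3.64 and 2.91 CPM in the WT-RA mice and at 4.68, 5.49 and 5.05 CPM in the KO-RA mice. In hyperoxia it was at 4.47, 5.23, 4.18 and 4.31 CPM in WT and at 5.73, 6.20 and 5.81 CPM in KO. Within each exposure all 3 KO mice were above all 4 WT mice, but the WT-O2 and KO-RA mice overlapped. Group means were 3.62 ± 0.54 CPM in WT-RA (SD, n = 4), 4.55 ± 0.47 in WT-O2 (n = 4), 5.08 ± 0.41 in KO-RA (n = 3) and 5.91 ± 0.25 in KO-O2 (n = 3). The log2 fold change, KO over WT, was 0.49 in room air (SE 0.13, 95% interval 0.21 to 0.77, edgeR q = 0.0293), a fold of 1.40. In hyperoxia it was 0.38 (SE 0.13, 0.10 to 0.66, q = 0.110), which missed the threshold on q. Averaged over both exposures it was 0.43 (SE 0.09, 0.24 to 0.63, q = 0.00424). The genotype differences in the 2 exposures differed by −0.11 on the log2 scale (SE 0.19, 95% interval −0.51 to 0.28, q = 1), so no difference between the exposures was detected. The values rest on 81 to 169 counts per library.

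The call for Naprt in room air was lost without KO-RA replicate 2 (q = 0.113), the KO-RA mouse with the highest level, and in a fit of the 2 groups alone (q = 0.105). It held without KO-RA replicate 1, the lowest KO-RA mouse and the library with the low choroid plexus sum, at 0.54 (q = 0.0536). The averaged call held without each mouse in turn, with q from 0.00207 to 0.0142. In a gene table of the GRCm38.p6 assembly the Naprt and Eef1d models lie on the same strand and overlap by 277 bases, and how the authors' estimation divided reads there was not tested. Eef1d had 1147 to 1427 counts per library.

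Top1mt, the mitochondrial DNA topoisomerase, was at 9.27 to 11.9 CPM in WT-RA, 9.64 to 12.3 in WT-O2, 10.2 to 11.7 in KO-RA and 10.6 to 11.4 in KO-O2. The groups overlapped throughout. Its log2 fold change, KO over WT, was 0.08 in room air and −0.02 in hyperoxia, and averaged over the exposures it was 0.03 with a 95% interval of −0.13 to 0.20.

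Scrib encodes Scribble, a scaffold that sets apicobasal and planar cell polarity and is also found at synapses. It was measured at 45.0, 41.9, 39.2 and 43.1 CPM in WT-RA and at 31.4, 36.1 and 32.2 CPM in KO-RA, so that all KO-RA mice lay below all WT-RA mice. In hyperoxia it was at 33.9, 38.0, 40.3 and 46.9 CPM in WT and at 36.0, 38.9 and 33.2 CPM in KO, and the groups overlapped. Group means were 42.3 ± 2.4 CPM (SD, n = 4) in WT-RA, 39.8 ± 5.4 in WT-O2 (n = 4), 33.2 ± 2.5 in KO-RA (n = 3) and 36.0 ± 2.9 in KO-O2 (n = 3). The log2 fold change, KO over WT, was −0.35 in room air (SE 0.10, 95% interval −0.56 to −0.14, edgeR q = 0.0343). In hyperoxia it was −0.14 (SE 0.10, −0.35 to 0.06, q = 0.474). That value was −0.05 without WT-O2 replicate 4, the mouse with conflicting labels, −0.06 with that mouse read as room air, and −0.21 without WT-O2 replicate 1, and none was called. The difference between these differences was 0.20 (SE 0.14, −0.09 to 0.50, q = 1) and was not called. Averaged over the exposures Scrib reached q = 0.0207 at a log2 fold change of −0.25, which is under the fold threshold. The room air call was lost without KO-RA replicate 1 (q = 0.145), the lowest KO-RA mouse and the library with the low choroid plexus sum. It was also lost without KO-RA replicate 3 (q = 0.131) and without WT-RA replicate 1, where the fold change no longer reached the threshold.

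The markers that differ by genotype are given here beside Scrib and Naprt. The summed level of the 8 striatal markers was 512 to 712 CPM in WT-RA and 318 to 746 in WT-O2, against 139 to 232 in KO-RA and 149 to 160 in KO-O2. For the 8 thalamic markers the sums were 104.3 to 652, 184 to 485, 88.4 to 113 and 95.3 to 110 CPM in the same order. For the 4 oligodendrocyte markers they were 6407 to 16060, 4032 to 10620, 2727 to 4365 and 2713 to 4775 CPM. The sums of the 8 hippocampal markers ran the other way, at 709 to 953, 846 to 1088, 1359 to 1660 and 1384 to 1601 CPM. The 4 astrocyte markers summed to 1056 to 1235, 1251 to 1358, 1441 to 1541 and 1472 to 1629 CPM, and 2 of them were called higher in KO in room air and 1 in hyperoxia. Of all these markers only Gbx2, of the thalamic list, was at 0, in 1 library.

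With the thalamic and striatal marker scores as covariates, the log2 fold change of Scrib in room air turned to 0.05 (edgeR q = 0.96), while that of Naprt was 0.71 (q = 0.498). In hyperoxia and in the average, Scrib turned to 0.27 (q = 0.681) and 0.16 (q = 0.819). Naprt was at 0.60 (q = 0.604) and 0.65 (q = 0.507). Neither gene was called in that fit, in which 59 of 16637 genes were called in room air, 23 in hyperoxia and 55 in the average. The 2 scores follow the genotype closely, with a squared multiple correlation of 0.887. What part the marker difference has in either result was not tested beyond this fit.

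**Figure D2:**
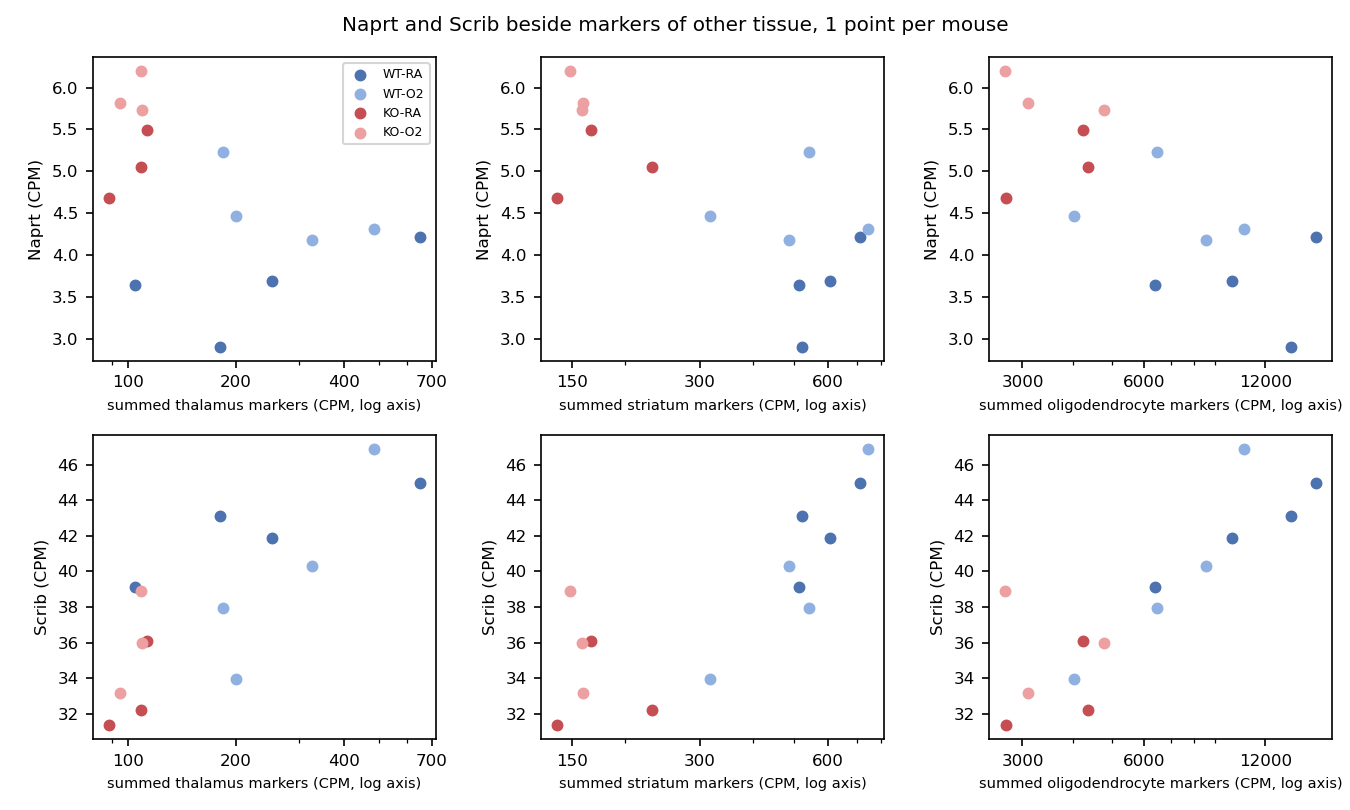
Naprt (top) and Scrib (bottom) in CPM against the summed CPM of thalamic, striatal and oligodendrocyte markers on log axes, with 1 point per mouse coloured by group. The striatal sums of all KO mice lie below those of all WT mice, while 1 WT mouse lies within the KO range of the thalamic sum, at 104.3 CPM, and 1 within that of the oligodendrocyte sum, at 4032 CPM.

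Mapk15, also known as ERK8, is an atypical MAP kinase linked to autophagy and cilia. It was at 5.16, 4.40, 4.77 and 4.91 CPM in WT-RA and at 2.12, 5.07 and 3.42 CPM in KO-RA. In hyperoxia it was at 4.54, 5.59, 4.18 and 4.0 CPM in WT and at 3.44, 3.82 and 3.38 CPM in KO. The KO-RA mice spread widely and 1 of them lay within the WT-RA range, whereas the 3 KO-O2 mice lay just below all 4 WT-O2 mice. The lowest KO-RA value is that of replicate 1, the library with the low choroid plexus sum. That library was also the lowest of KO-RA for Gsdmd, Naprt, Scrib, Rhpn1, Zc3h3 and Nrbp2. KO-O2 replicate 2, the other library with a low choroid plexus sum, was the highest of KO-O2 for Naprt, Scrib, Mapk15, Zc3h3, Eef1d and Nrbp2. It was the lowest of KO-O2 for Gsdmd, Puf60 and Top1mt. The part of these 2 libraries in the results was not tested. Means were 4.81 ± 0.32 (SD, n = 4), 4.58 ± 0.71 (n = 4), 3.54 ± 1.48 (n = 3) and 3.54 ± 0.24 CPM (n = 3) in that order, first both WT groups and then both KO groups in room air and hyperoxia. The log2 fold change, KO over WT, was −0.44 in room air (SE 0.21, 95% interval −0.90 to 0.02, edgeR q = 0.233) and −0.37 in hyperoxia (SE 0.22, −0.83 to 0.09, q = 0.395). Only the average over both exposures was called, at −0.41 (SE 0.15, −0.73 to −0.08, q = 0.0809). That call was lost in 12 of the 14 fits that left out 1 mouse, and it held without WT-O2 replicate 4 and without KO-RA replicate 2. Without KO-RA replicate 2, the KO-RA mouse within the WT range, the room air difference was −0.79 (q = 0.0277), and without KO-RA replicate 1, the mouse with the lowest level, it was −0.18 (q = 0.646). With marker scores as covariates the averaged value was −0.22 (q = 0.932). The counts behind these values were 57 to 156 per library.

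Rhpn1 encodes rhophilin 1, an adaptor protein of cytoskeletal signalling. It was at 6.29, 6.94, 6.18 and 7.35 CPM in WT-RA and at 6.80, 8.71 and 8.54 CPM in KO-RA, so that 2 of 3 KO mice were above every WT mouse. In hyperoxia WT mice were at 7.18 to 8.80 CPM and KO mice at 8.21 to 8.84 CPM, and the groups overlapped. The log2 fold change, KO over WT, was 0.26 in room air (95% interval 0.02 to 0.50, edgeR q = 0.177), 0.13 in hyperoxia (q = 0.604) and 0.20 averaged (q = 0.111). None of these was called. Without KO-RA replicate 1, the library with the low choroid plexus sum, the room air value was 0.37 and was called (q = 0.0915). With marker scores as covariates the values were 0.61 in room air (q = 0.478), 0.49 in hyperoxia (q = 0.607) and 0.55 averaged, and none was called.

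Nrbp2 encodes a pseudokinase expressed in neural cells. Its levels were 185, 161, 143 and 150 CPM in WT-RA, 165, 170, 174 and 186 in WT-O2, 136, 141 and 145 in KO-RA, and 151, 197 and 145 in KO-O2. Of the 3 KO-RA mice 2 lay below all WT-RA mice, and of the KO-O2 mice 2 lay below and 1 above the WT-O2 range. The log2 fold change, KO over WT, was −0.18 in room air (95% interval −0.40 to 0.04, edgeR q = 0.31) and −0.08 in hyperoxia (q = 0.758). Without KO-O2 replicate 2, the highest KO-O2 value and a library with a low choroid plexus sum, the hyperoxia value was −0.23 (q = 0.214). Averaged over the exposures the log2 fold change was −0.13 (edgeR q = 0.245). When 1 mouse was left out, this value ran from −0.21 to −0.08 with q from 0.0325 to 0.483, always under the fold threshold. With marker scores as covariates the values were 0.12, 0.23 and 0.17 in room air, hyperoxia and the average. Nrbp2 was not called in any genotype comparison.

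The genes of translation and RNA handling were not called in any comparison. Eef1d, a subunit of the elongation factor 1 complex, was at 43.0 to 50.1 CPM in WT-RA, 42.02 to 50.0 in WT-O2, 45.8 to 47.5 in KO-RA and 44.4 to 47.7 in KO-O2. Puf60, a splicing factor that binds poly(U) tracts, had means of 103 ± 6.1 and 103 ± 7.7 CPM (SD, n = 4 each) in WT-RA and WT-O2, and of 98.8 ± 5.8 and 98.2 ± 2.7 CPM (n = 3 each) in KO-RA and KO-O2. Zc3h3, a zinc finger protein of messenger RNA export, was at 22.8 to 27.3, 23.9 to 26.4, 24.4 to 25.4 and 23.1 to 28.9 CPM in the same order. All of these groups overlapped. The averaged log2 fold change, KO over WT, was 0.03 for Eef1d (95% interval −0.08 to 0.13), −0.06 for Puf60 (−0.17 to 0.04) and −0.02 for Zc3h3 (−0.14 to 0.11). Averaged over exposures, changes beyond 0.17 on the log2 scale in either direction lie outside the intervals of these 3 genes.

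Mroh6, of the maestro family of HEAT repeat proteins, was hardly detected and did not pass the filter. It had 3, 3, 1 and 1 counts in WT-RA, 1, 0, 1 and 4 in WT-O2, 4, 5 and 0 in KO-RA, and 2, 1 and 1 in KO-O2. At 0 to 5 counts per library a difference was not detectable.

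**Figure D3:**
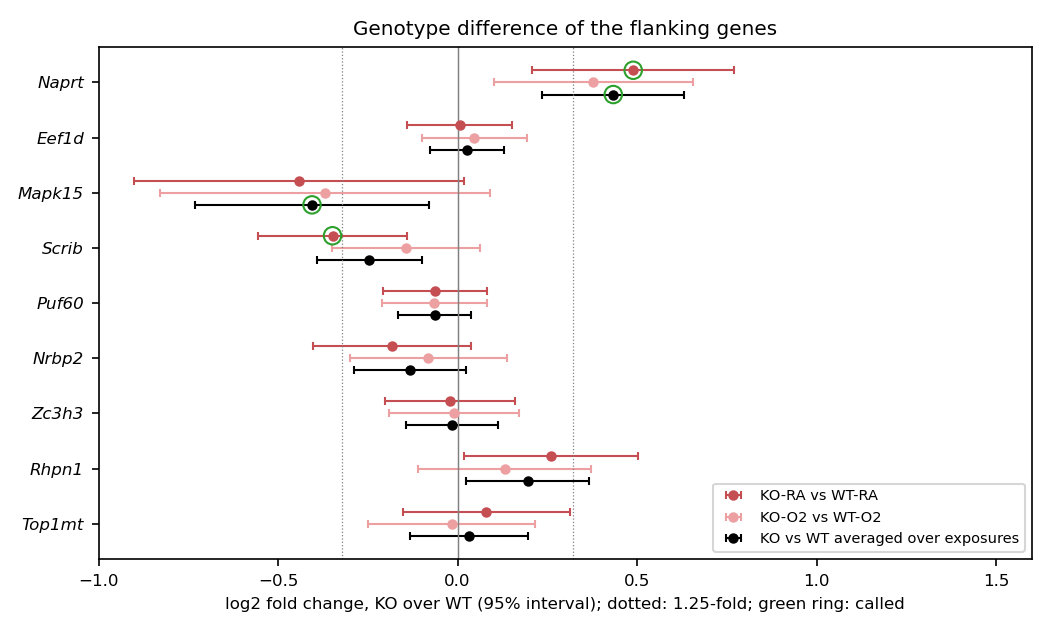
Log2 fold change of the 9 tested genes, KO over WT, with 95% intervals, in room air, in hyperoxia and averaged over both. Dotted lines mark the fold threshold, 0.32 on this scale, and green rings the calls, which are Naprt at 0.49 and 0.43, Scrib at −0.35 and Mapk15 at −0.41.

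The response to hyperoxia was compared within each genotype. Between WT-O2 and WT-RA, 0 of 9 genes were called by edgeR, with 1 at an unadjusted p under 0.05 against 12.2% of all genes, and DESeq2 called 0. The background of calls was 0.643% of all genes. That share was 2.14% in DESeq2, 0.0361% with WT-O2 replicate 4 as room air and 0.0783% to 1.64% when 1 mouse was left out. The groups overlapped for all 9, against 5.99% of all genes without overlap. The 1 gene was Naprt, at a log2 fold change of 0.33, hyperoxia over room air (95% interval 0.07 to 0.59, q = 0.288). Between KO-O2 and KO-RA, 0 of 9 were called by edgeR, 0 had an unadjusted p under 0.05 against 4.86% of all genes, and DESeq2 called 0. The background of calls was 0.012%, and 0.00592% to 0.0241% when 1 mouse was left out. There the groups did not overlap for Naprt and Nrbp2, 2 of 9 genes against 11.8% of all genes, at log2 fold changes of 0.22 and 0.23 (q = 0.997 for both). For Nrbp2 the separation was below rounding, with KO-RA replicate 3 and KO-O2 replicate 3 both at 144.9 CPM. In counts the groups overlapped for both genes. The interaction of genotype and exposure was called for 0 of 9 genes by edgeR, with 0 at an unadjusted p under 0.05 against 4.05% of all genes, and for 0 by DESeq2. The background of calls was 0%. Its values ran from −0.13 to 0.20.

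The other genes of the neighbourhood were taken from the same gene table, which places 46 genes of the counts within 500 kb of Gsdmd. Of these, 33 were tested, 24 of them outside the 10 described above. In room air edgeR called 1 of the 24, or 4.17%, against 10.4% of all genes. In hyperoxia it called 0 of 24 against 6.86%, and in the average 0 of 24 against 12%. At an unadjusted p under 0.05 there were 2, 3 and 5 of the 24, against 23.5%, 18.7% and 30.1% of all genes. DESeq2 called 1, 0 and 0 of them, against 10.8%, 7.79% and 11.4% of all genes. The gene called in room air was Plec, which encodes the cytoskeletal linker plectin. Plec was at 142, 148, 143 and 124 CPM in WT-RA and at 106, 114 and 102 CPM in KO-RA, with no overlap. Its log2 fold change was −0.37 in room air (SE 0.07, edgeR q = 0.00565) and −0.10 in hyperoxia (q = 0.55).

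The 4 nearest tested genes on each side of Gsdmd were Zc3h3, Mafa, Rhpn1 and Top1mt on the proximal side and Naprt, Eef1d, Tigd5 and Pycrl on the distal side. Mafa, a basic leucine zipper transcription factor, was at a log2 fold change of 0.26 in room air (edgeR q = 0.677). Tigd5, a gene derived from a transposon, was at −0.21 in room air (q = 0.371) and −0.27 in hyperoxia (q = 0.302). Averaged over both, Tigd5 was at −0.24 with q = 0.0941, under the fold threshold. Pycrl, which acts in proline synthesis, was at −0.07 and −0.08. None of Mafa, Tigd5 and Pycrl was called.

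Genes were also counted by their distance from Gsdmd, with no test. In room air 1 of 7 tested genes within 100 kb was called (14.3%) and 2 of 26 (7.69%) between 100 and 500 kb. Further out these were 3 of 49 (6.12%) between 500 kb and 2 Mb, 17 of 176 (9.66%) between 2 and 10 Mb, and 50 of 385 (13%) beyond 10 Mb on the chromosome. Of all genes tested 10.4% were called in room air. In hyperoxia the counts were 0, 0, 2 (4.08%), 5 (2.84%) and 31 (8.05%) in the same windows, against 6.86% of all genes. The whole of chromosome 15 had 73 of 644 tested genes called in room air, or 11.3%, and 39, or 6.06%, in hyperoxia. The median absolute log2 fold change in room air was 0.07 within 100 kb and 0.07 between 100 and 500 kb, against 0.14 for all genes. In hyperoxia it was 0.08 and 0.13 in these windows, against 0.12 for all genes.

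**Figure D4:**
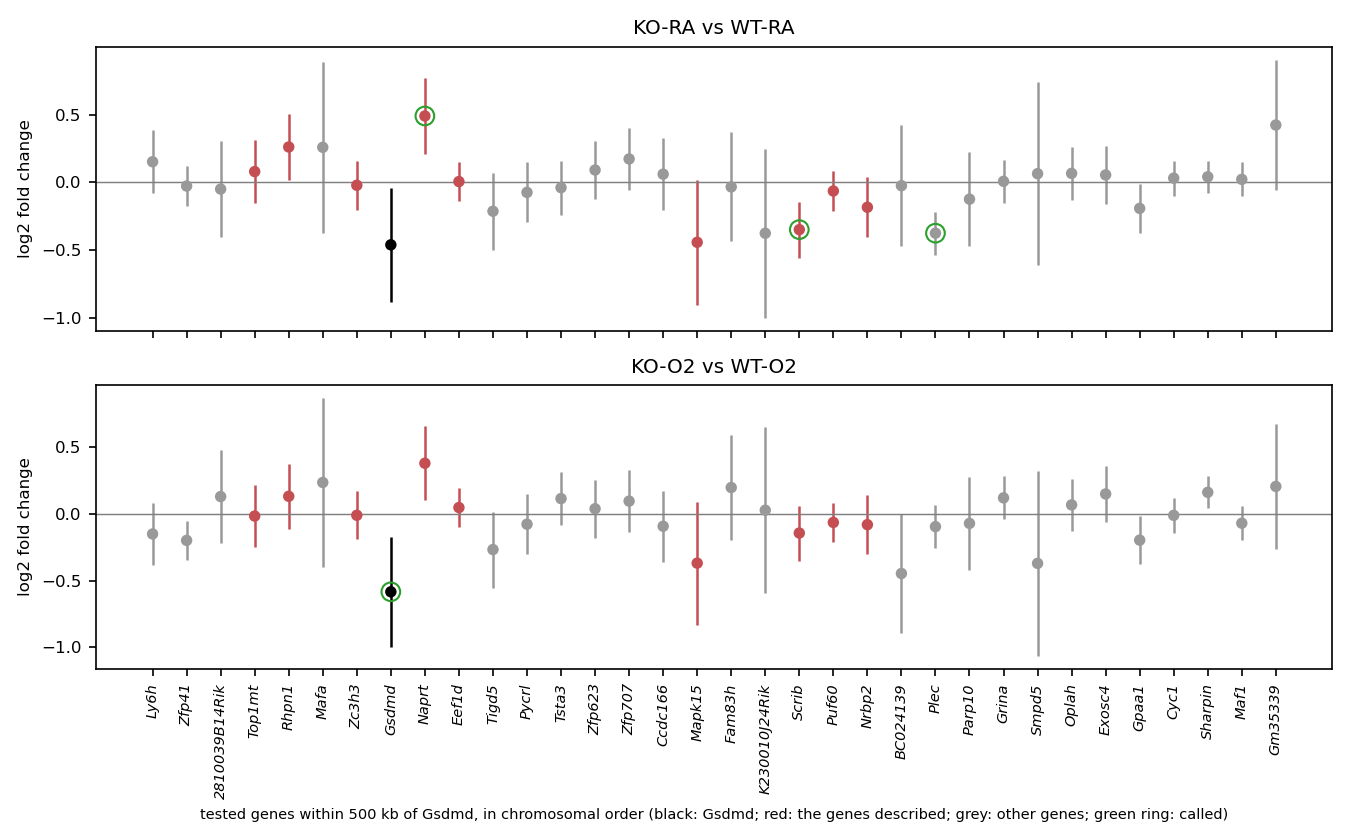
Log2 fold change, KO over WT, with 95% intervals, of Gsdmd (black), the 9 tested flanking genes (red) and the 24 other tested genes within 500 kb (grey), in their order along the chromosome, in room air (top) and hyperoxia (bottom). Green rings mark calls, which beside Gsdmd in hyperoxia are Naprt at 0.49, Scrib at −0.35 and Plec at −0.37, all in room air.

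Variation between mice of the same group was compared across the flanking genes. After group means were taken off, Pearson's r of log2 CPM over the 14 libraries ran from −0.511 (Naprt and Top1mt) to 0.755 (Zc3h3 and Nrbp2) over the 36 pairs of tested genes, with a median of 0.216. Naprt had the smallest p of the set in the averaged comparison. The genes with levels most like it over the 14 libraries were Tnxb (r = 0.926), Ppfia4 (r = 0.921) and Cdc25b (r = 0.919). With group means taken off, these were 0.703, 0.674 and 0.662. The points share libraries and group differences, and the values are descriptions.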

How the data were processed

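Hippocampal RNA of 14 mice was sequenced as paired-end, poly(A)-selected libraries. The authors estimated transcript abundance with Kallisto on GRCm39, summed it to genes with tximport and deposited estimated counts per gene. Tool versions are not given in the sources used here. The counts were rounded, filtered with edgeR's filterByExpr function (16637 genes kept) and scaled by TMM (factors 0.965 to 1.02). One model with 1 coefficient per group was fitted to all libraries in edgeR 4.0.16 (R 4.3.3) and tested by its quasi-likelihood F-test. SEs were derived from the F statistics. The log2 CPM used for correlations had a prior count of 2. The procedure was tested on simulated data, and the outcome is not given here.

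Symbols were found for 35825 of 36118 genes, including all 10 flanking genes. Order and distances come from a GRCm38.p6 gene table, whereas the counts are on GRCm39, so that coordinates are not given. The genes, marker lists and pathway lists were chosen with earlier results of these data known. By rule, the genes named were the 10 flanking genes, Gsdmd and the 3 genes most correlated with the flanking gene of smallest p. Other genes within 500 kb were named if called in a genotype comparison or among the 4 nearest tested on each side. Outside this rule are the genes of the pathway lists, chosen after Naprt and Scrib were seen. Apol7b and Apol7e, picked after their values were seen, and Arhgap39, Kcnk9 and Scrt1 are also outside it. The promoter table used held 0 entries for Mroh6, Naprt, Eef1d, Zc3h3, Top1mt, Rhpn1, Mapk15, Scrib, Puf60 and Nrbp2. Alternatives were DESeq2 1.42.0, other scalings, filters and thresholds, a fit of the groups compared, marker scores as covariates, WT-O2 replicate 4 as room air, and leaving out each mouse.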

Additional observations from a re-analysis of the deposited data

How the results depend on the processing

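Counts of calls were recomputed under 24 alternatives, 2 of which are thresholds that leave the single values as they are. Of 585 single values under the others, 519 kept their direction and call, 38 turned direction, 21 kept their direction and lost a call, and 7 gained one. Scrib in room air with covariates turned direction and lost its call. The room air count of 2 became 0 with marker covariates, 1 (Scrib) in the fit of 2 groups and 0 at a fold of 1.5, and was 1 to 2 when 1 mouse was left out. Of all genes, 0.355% were called with covariates, 8.19% in the fit of 2 groups and 6.37% to 11.6% when 1 mouse was left out. The hyperoxia count of 0 became 1 (Naprt) in DESeq2 and 1 (Naprt) in the fit of 2 groups, and was 0 to 1 when 1 mouse was left out. The shares of all genes called were 7.79%, 8.55% and 4% to 8.05% in that order. With 1 mouse left out, Naprt was called without WT-RA replicate 1 (q = 0.0776), WT-RA replicate 4 (q = 0.0669) or WT-O2 replicate 2 (q = 0.0913, edgeR). The averaged count of 2 became 1 without the filter, 0 with covariates, 0 at a fold of 1.5 and 1 at q under 0.05, and was 1 to 2 when 1 mouse was left out. Against these stood 7.78% of all genes without the filter, 0.331% with covariates and 10.7% to 12.8% when 1 mouse was left out. Gsdmd in hyperoxia was −0.57 and not called in DESeq2, with its size factors in edgeR and without the filter, −0.48 with covariates, −0.58 with WT-O2 replicate 4 as room air, and −0.64 to −0.54 when 1 mouse was left out.

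Most turns of direction were in genes near 0. Covariates gave, in room air, hyperoxia and the average, 0.013, 0.029 and 0.021 for Zc3h3, 0.054, 0.27 and 0.16 for Scrib, 0.075, 0.075 and 0.075 for Puf60, and 0.12, 0.23 and 0.17 for Nrbp2, as well as 0.15 for Top1mt in hyperoxia. Eef1d in room air was −0.0077 by library size and −0.016 with WT-O2 replicate 4 as room air. Zc3h3 in hyperoxia was 0.0014 in DESeq2, 0.0023 with its size factors and 0.0012 without the filter. Top1mt in hyperoxia was 0.041 with WT-O2 replicate 4 as room air. Leaving out 1 mouse gave −0.020 to 0.052 for Eef1d in room air, −0.063 to 0.028, −0.13 to 0.046 and −0.074 to 0.013 for Zc3h3 in room air, hyperoxia and the average, −0.077 to 0.048 and −0.0011 to 0.079 for Top1mt in hyperoxia and the average, and −0.23 to 0.0013 for Nrbp2 in hyperoxia. The cause of these turns was not tested. No paired analysis was possible because the labels give no replicate numbers that the groups share. Low counts limit Gsdmd, Naprt, Mapk15 and Mroh6 most.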

Other observations

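Genes that work with the called neighbours were looked up in lists chosen after Naprt and Scrib were seen. Of 8 genes of NAD synthesis (Nampt, Nadsyn1, Qprt, Nmnat1, Nmnat2, Nmnat3, Nmrk1 and Nmrk2), edgeR called 0 in room air, 0 in hyperoxia and 1 in the average over exposures. At an unadjusted p under 0.05 there were 3, 1 and 3 of the 8, against 23.5%, 18.7% and 30.1% of all genes. DESeq2 called 0, 0 and 1, against 10.8%, 7.79% and 11.4% of all genes. The share called by edgeR in the average was 12.5%, against 12% of all genes. The edgeR shares of all genes in room air and hyperoxia were 10.4% and 6.86%. The gene called was Nmrk1, a nicotinamide riboside kinase, at a log2 fold change of 0.34, KO over WT (SE 0.11, q = 0.0435). Nampt, the main salvage enzyme, was at 0.17 in room air (q = 0.114) and 0.03 in hyperoxia (q = 0.869). Nmnat2, the adenylyltransferase of axons, was lower at −0.26 in room air (q = 0.0299) and −0.23 in the average (q = 0.00558), both under the fold threshold. Of 5 partners of Scribble (Dlg1, Llgl1, Llgl2, Vangl2 and Arhgef7), 2 were called in room air against 10.4% of all genes, 1 in hyperoxia against 6.86% and 1 in the average against 12%, all lower. At an unadjusted p under 0.05 there were 2, 2 and 3 of the 5, against 23.5%, 18.7% and 30.1% of all genes. DESeq2 called 2, 1 and 1, against 10.8%, 7.79% and 11.4% of all genes. Dlg1, a polarity scaffold of the same module, was at −0.59 in room air (SE 0.09, q = 0.0012) and −0.48 in hyperoxia (SE 0.09, q = 0.00618). Llgl1 was at −0.41 in room air (SE 0.12, q = 0.0487) and −0.17 in hyperoxia (q = 0.501). In room air and hyperoxia, Vangl2 was at −0.15 and −0.19, Llgl2 at 0.06 and 0.17, and Arhgef7 at 0.02 and 0.10, and none of these was called.

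Apol7b and Apol7e, paralogous apolipoprotein L genes that lie 500 kb to 2 Mb from Gsdmd and can share reads, were noticed after their values were seen. Apol7b had 61, 65, 51.3 and 0 counts in the WT-RA mice and 57, 65, 19.8 and 0 in the WT-O2 mice. It had 0 counts in all 6 KO mice. By edgeR it was called lower in KO mice in room air (log2 fold change −8.46, SE 2.48, q = 0.057). It was also called lower in hyperoxia (−8.16, SE 2.56, q = 0.0993). Apol7e had 0, 1, 10.7 and 40 counts in WT-RA, 0, 0, 24.2 and 64 in WT-O2, 45, 52 and 61 in KO-RA and 62, 75 and 59 in KO-O2. The WT mice at 0 for Apol7b, WT-RA replicate 4 and WT-O2 replicate 4, were thus those with the highest Apol7e among WT mice, and they had the pattern of the KO mice. By edgeR Apol7e was called higher in the average over exposures (1.81, q = 0.0893), but not in room air (q = 0.257) or hyperoxia (q = 0.403). The cause of the Apol7 pattern was not tested. Arhgap39, Kcnk9 and Scrt1, also outside the 500 kb window, were looked up too. Arhgap39 was called higher in room air (0.42, edgeR q = 0.00493) and hyperoxia (0.52, q = 0.00236). Kcnk9 was called lower in both (−0.66, q = 0.00323, and −0.46, q = 0.0357). Scrt1 was called lower in room air (−0.55, q = 0.00376).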
